A study of Mus musculus with 9 samples.

Results

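The Schlafen gene cluster of the mouse is a row of related genes on chromosome 11, and 7 of them were chosen by name: Slfn1, Slfn2, Slfn3, Slfn4, Slfn5, Slfn8 and Slfn9. All 7 were found in the GENCODE vM1 annotation of mm9, out of 37310 annotated genes, and they span chr11:82764851-83028656. Every H3K27ac island from 50 kb before to 50 kb after this span was taken, which gave 33 of the 65563 islands of the wild-type (WT) list and 40 of the 82213 islands of the double-knockout (dKO) list. H3K27ac, acetylation of lysine 27 of histone H3, is a mark of active promoters and enhancers.

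The islands come from naive CD8+ T cells sorted from mouse spleen. WT cells were Tcf7+/+Lef1+/+ and dKO cells were Tcf7 fl/fl Lef1 fl/fl, so that they lack the transcription factors Tcf1 and Lef1, and both genotypes carried hCD2-Cre and a Rosa26 GFP reporter. Sorting took GFP+ TCRβ+ CD8+ cells of naive surface phenotype, with low to medium CD44, from mice 6 to 12 weeks old, and hCD2-Cre is described as acting mainly in mature T cells. The 4 WT and 3 dKO ChIP samples were pooled by genotype before islands were called, so each genotype has 1 value, no test between genotypes can be had, and every interval given is a 95% exact binomial (Clopper-Pearson) interval that covers counting error only. How far sorted populations, mice or libraries contribute to a difference cannot be told apart from genotype.

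Schlafen genes are best known as interferon-inducible genes that restrain growth of lymphocytes and viruses. The family falls into a short group, an intermediate group and a long group, of which the long proteins carry a helicase-like domain and are found in the nucleus. Slfn1 slows thymocyte growth when overexpressed, Slfn2 is needed for T cells to stay quiescent, and Slfn4 is known mainly from myeloid cells. The longest annotated coding sequences followed these groups. They held 1014 bases for Slfn1 and 1137 for Slfn2, 1554 for Slfn3 and 1809 for Slfn4, 2655 for Slfn5, and 2733 for both Slfn8 and Slfn9. The closest pair was Slfn8 and Slfn9, identical at 92.7% of positions in a global alignment. Slfn3 and Slfn4 were identical at 80.3% and Slfn1 and Slfn2 at 63.7%, each as a share of the longer sequence.

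The promoters share one feature that the choice of genes did not use. The RefSeq promoter table (GRCm38.p6, 250 bases before to 50 after a gene's start) holds 8 entries for the 7 genes, since Slfn8 has 2. All 8 entries contain the core of an interferon regulatory factor (IRF) site, AANNGAAA on either strand, which 23.9% of the 32851 promoters of the same length contain. IRF proteins carry the interferon response to gene promoters. Of the 3 kinds of word searched, IRF, STAT and Tcf/Lef, only this one occurs in every entry, and other shared sequence was not searched for. The share over all promoters was not matched for base content, and the Slfn4 entry has 33.7% G and C. Matches are therefore shown on the strand of the gene, in capitals with 20 bases either side.
Slfn1, position 220: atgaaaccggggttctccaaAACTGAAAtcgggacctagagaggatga
Slfn2, position 192: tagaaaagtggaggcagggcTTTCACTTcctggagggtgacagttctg
Slfn3, position 233: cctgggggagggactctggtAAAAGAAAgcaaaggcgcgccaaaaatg
Slfn4, position 26: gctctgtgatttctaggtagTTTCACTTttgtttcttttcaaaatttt
Slfn8, position 203: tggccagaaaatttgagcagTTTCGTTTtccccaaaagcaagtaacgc
Slfn9, position 206: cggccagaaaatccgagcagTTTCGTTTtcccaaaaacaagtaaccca
Positions count from 1 at the 5′ end of each 300-base entry, and the Slfn8 match recurs at position 115 of its other, overlapping entry. Slfn8 and Slfn9 have the same letters in the match and nearly the same letters around it. Slfn2 has another match at position 170 and Slfn4 has others at positions 37 and 99. No entry contains the STAT word TTCNNNGAA, which 8.30% of all promoters hold.

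Tcf/Lef words were rarer. The 4 words searched, on either strand, were CTTTGAA along with CTTTGAT, and CTTTGTA along with CTTTGTT. They occur in 16.9% of all promoters and in 3 of the 8 Schlafen entries, 1 each of Slfn2, Slfn5 and Slfn8. In the Slfn5 promoter (chr11:82951852-82952151 of GRCm38.p6, plus strand) the Tcf/Lef word TTCAAAG at position 88 overlaps the IRF core AAGTGAAA at position 92, and another IRF core starts at position 98 and runs into a stretch of A. The whole entry is printed because the words of both families lie on top of each other there, as 1 run of capitals.
Slfn5 promoter: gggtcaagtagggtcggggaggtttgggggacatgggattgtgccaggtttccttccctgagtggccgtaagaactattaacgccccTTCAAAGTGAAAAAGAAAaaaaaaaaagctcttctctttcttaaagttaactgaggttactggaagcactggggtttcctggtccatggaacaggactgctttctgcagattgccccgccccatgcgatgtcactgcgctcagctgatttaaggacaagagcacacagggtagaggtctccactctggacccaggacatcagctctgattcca
A match to such short words describes the letters and does not show that a factor binds.

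The study lists 2 accessible sites with these genes, 1 at the Slfn1 promoter and 1 inside Slfn5, and both positions were read in mm9 on the plus strand. They belong to a group chosen in the study for lower accessibility in dKO cells at genes with higher expression there. The study marks both as overlapping Tcf1 peaks and reports similar H3K27ac in both genotypes over the group. Accessibility, expression and Tcf1 peaks were not analysed here. The Slfn1 site, chr11:82930095-82930317, ends 33 bases before the annotated start of Slfn1 and lies outside exons. It holds the same IRF core as the Slfn1 promoter, in capitals, and no Tcf/Lef word. Of 223-base windows at the centres of all 65563 WT islands, 24.6% held an IRF core and 18.0% a Tcf/Lef word.
Slfn1 site: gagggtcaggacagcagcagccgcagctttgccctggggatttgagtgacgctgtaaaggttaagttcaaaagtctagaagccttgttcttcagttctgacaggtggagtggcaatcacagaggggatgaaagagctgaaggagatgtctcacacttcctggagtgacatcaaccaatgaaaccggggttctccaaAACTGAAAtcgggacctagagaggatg
The Slfn5 site, chr11:82768249-82768377, overlaps an annotated exon of Slfn5 and the transcript 1700003F17Rik on the other strand, is centred 3462 bases after its most upstream start and holds none of the 3 kinds of word, so it is printed without capitals.
Slfn5 site: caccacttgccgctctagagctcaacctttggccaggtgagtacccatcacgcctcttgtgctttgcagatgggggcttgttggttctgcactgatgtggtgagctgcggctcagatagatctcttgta
Both sites lay inside an island of each list. The Slfn1 site was in the island of the Slfn1 promoter, and the Slfn5 site lay close to the downstream edge of the island of the Slfn5 promoter.

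The cluster carried H3K27ac over about as much sequence in dKO as in WT cells, with a modestly lower share of the reads. WT islands held 54254 counts over 182.4 kb, 50.1% of the window, and dKO islands 35323 counts over 194 kb, 53.3% of the window. Since the lists differ in depth, with 82668007 counts in all WT islands and 57665047 in all dKO islands, counts were divided by these totals and are given per 1000000 counts of the list (CPM). The window then held 656 CPM in WT and 613 in dKO cells, a log2 ratio of dKO to WT of -0.10 (-0.12 to -0.080). Per covered kb it was -0.19. Both are small beside the 1.5-fold used here as the limit for calling a region changed.

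**Figure D1:**
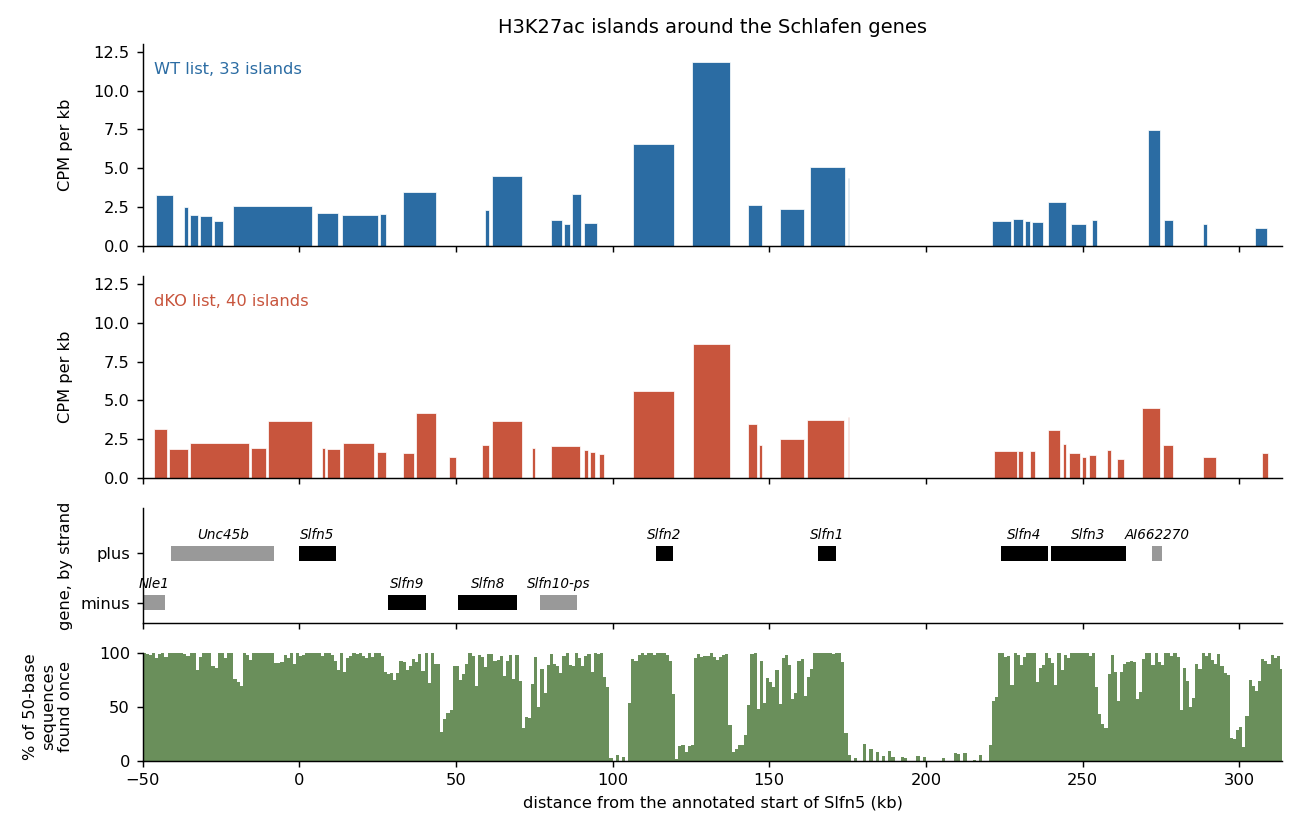
H3K27ac islands of the WT list (blue) and the dKO list (red), as CPM per kb of island, against the distance in kb from the annotated start of Slfn5, with the genes by strand (members black, others grey) and, in 1 kb bins, the percentage of 50-base sequences that occur once in the genome (green). The highest island of both lists lies between Slfn2 and Slfn1, at 11.8 in WT and 8.61 in dKO cells, and the stretch of 45.6 kb between Slfn1 and Slfn4 has no island and almost no sequence that occurs once.

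The islands merged into 30 regions, of which 24 had islands in both lists, 1 only in the WT list and 5 only in the dKO list. The median log2 ratio of the 24 shared regions was -0.074, beside -0.073 for the 45322 shared regions of the genome, and per kb it was -0.070 beside -0.020. By counts 1 region was at least 1.5-fold higher in dKO cells and 1 at least 1.5-fold lower, where 11.1% of all shared regions were higher and 14.6% lower. By counts per kb none was higher and 1 was lower, where 1.17% of all shared regions were higher and 4.51% lower. These shares are near or under those of the genome, so the window did not stand apart by the number of changed regions. The 6 regions of 1 list were small, with 210 counts for that of the WT list and 687 counts in all for those of the dKO list.

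**Figure D2:**
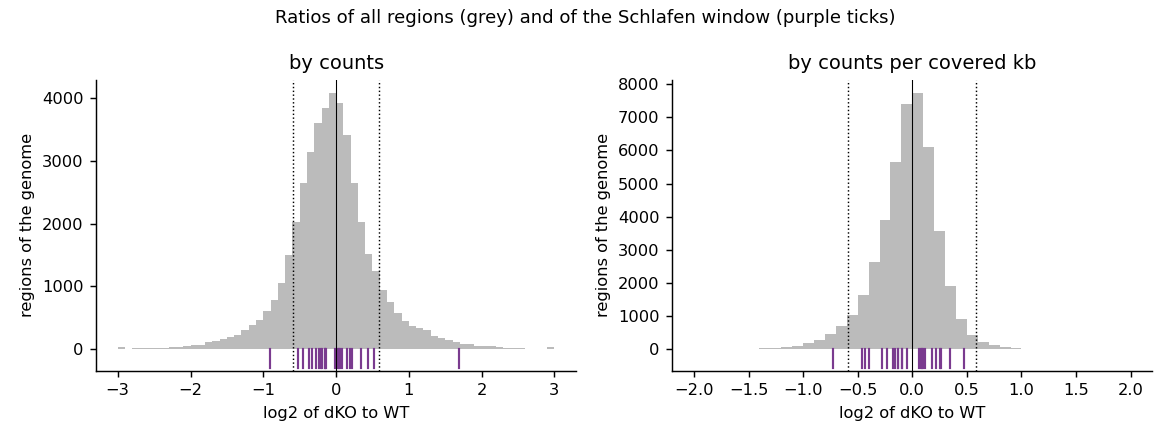
Number of regions of the genome (grey bars, 45322 regions with islands in both lists) by their log2 ratio of dKO to WT, by counts on the left and by counts per covered kb on the right, with the 24 regions of the Schlafen window as purple ticks and 1.5-fold as dotted lines; ratios beyond an axis's outermost bars are drawn in those bars. The ticks lie within the bulk of the grey bars apart from 1 high and 1 low region by counts and 1 low region per kb.

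The strongest mark of the cluster was not at a promoter. It was an intergenic region of about 12 kb, chr11:82890201-82902400, which starts 11587 bases from the start of Slfn2, on the side of Slfn1, and overlaps no annotated gene. The WT island held 11728 counts over 12 kb, or 977 counts per kb, more than 99.7% of WT islands. The dKO island held 5958 counts over 12 kb, or 496 counts per kb, more than 99.6% of dKO islands. So the region ranked alike in its own list in both genotypes, while its scaled ratio was -0.46 (-0.50 to -0.41) by counts as well as per kb. Without this region, left out after the values were seen, the window ratio was -0.015 (-0.036 to 0.0069). The remainder balances regions of both signs, such as the merged region with the Slfn5 promoter at 0.35 and the Slfn2 region at -0.23. The intergenic region is the only one of the window in the deepest class of the genome, at 8 CPM per kb or more averaged over the lists. The 532 regions of that class had a median ratio per kb of -0.47, with 91.4% below 0.

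This relation to depth ran through the window as it did through the genome. In the class from 4 to 8 CPM per kb all 5 window regions were below 0 per kb, with a median of -0.28, beside -0.36 for the 3813 regions of the genome. From 2 to 4 the 10 window regions had a median of -0.015 beside -0.096, and under 2 the 8 window regions had one of 0.15 beside 0.034. Depth therefore moved with the ratios reported for the strong promoters and for the intergenic region, and its part in them was not tested.

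**Figure D3:**
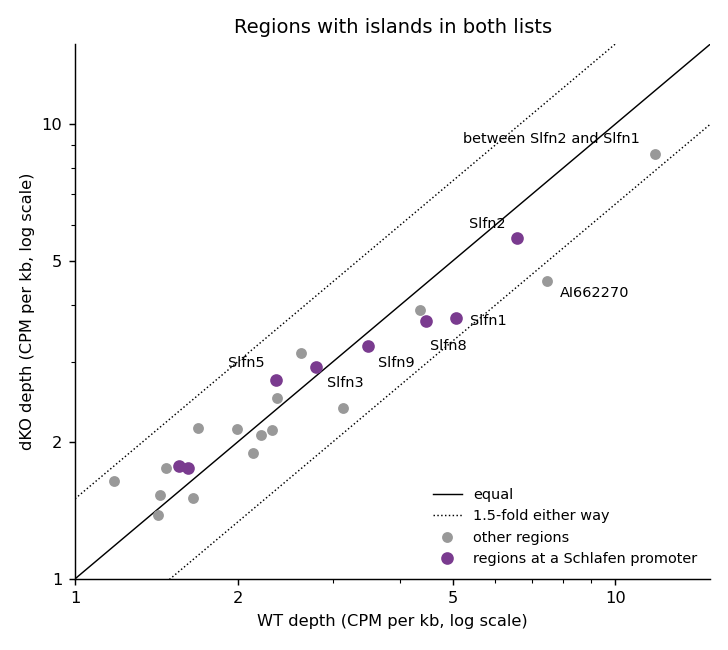
Depth of the 24 shared regions of the window in WT (x axis) and dKO cells (y axis), in CPM per kb on log scales, with regions at the promoter of one of the 7 genes in purple. The strong regions, among them those of Slfn2, Slfn1, Slfn8 and the stretch between Slfn2 and Slfn1, lie under the line of equal depth, and the weak regions lie on both sides of it.

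All 7 genes had an island within 1 kb of an annotated transcription start in both lists, where 62.9% of the 22380 protein-coding genes had one in WT and 63.3% in dKO cells. With the promoter regions of a gene summed, which for Slfn4 joins 2 regions, no member reached 1.5-fold by counts, where 4.11% of 13826 promoters were higher and 10.5% lower. No member reached it per kb either, where 0.514% were higher and 12.6% lower. Taken alone, the region over an alternative start of Slfn4 was past the limit by counts. Over islands from the gene body to 5 kb either side no member reached 1.5-fold, while 14.3% of 15229 protein-coding genes were higher and 13.3% lower. All 7 gene values were below 0 by counts, with a median of -0.22 beside -0.058 for all genes, of which 55.2% were below 0. Neighbouring genes share islands, as Slfn5 and Slfn9 or Slfn4 and Slfn3 do, so these are not 7 separate values. Per kb 5 of 7 were below 0, with a median of -0.030 beside -0.16.

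**Figure D4:**
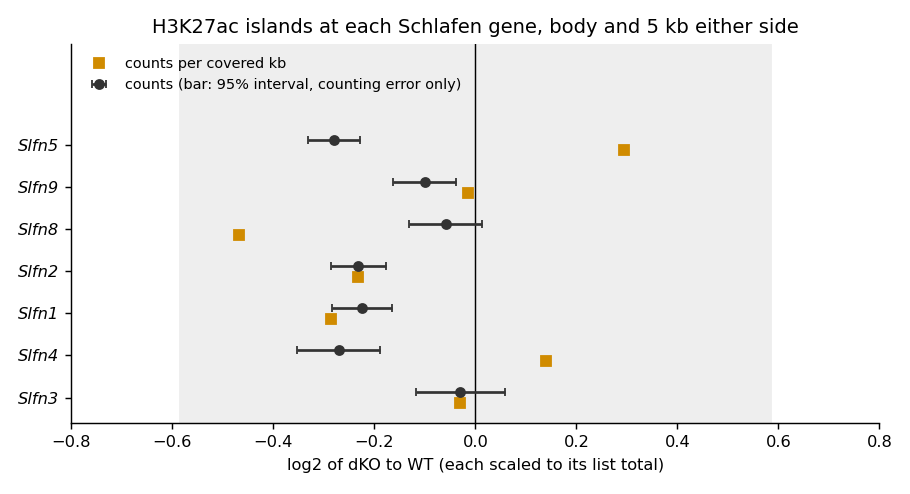
Log2 ratio of dKO to WT for the islands of each Schlafen gene, from the gene body to 5 kb either side, by counts (black, bars are 95% counting intervals) and by counts per covered kb (orange squares), with the range under 1.5-fold shaded. All points lie in the shaded range, and the measures have opposite signs for Slfn5 and Slfn4.

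Of the short group, Slfn2 had the deepest promoter of the cluster. A single island with the same borders in both lists, chr11:82871401-82884600, covered the whole gene (chr11:82878614-82884180, plus strand) and the stretch before it. It held 7178 counts in WT and 4265 in dKO cells, or 544 and 323 counts per kb, with a log2 ratio of -0.23 (-0.29 to -0.18). Equal borders make this value the same by counts and per kb. Among protein-coding genes Slfn2 was at percentile 95.6 of counts per kb in WT and 97.5 in dKO cells.

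Slfn1 (chr11:82930351-82936172, plus strand) was covered by an island of 11.2 kb with 4690 counts in WT cells and of 12 kb with 2593 counts in dKO cells. The region had a ratio of -0.34 (-0.41 to -0.27) by counts and -0.43 per kb. Among promoter regions this was the lowest of the 7 genes on both measures when the 2 promoter regions of Slfn4 are summed. Over the gene and 5 kb either side Slfn1 was at -0.22 by counts and -0.29 per kb. There it was not the lowest, with Slfn5 at -0.28 by counts and Slfn8 at -0.47 per kb. The promoter region of Slfn1 holds the accessible site at the Slfn1 promoter. The next region upstream, chr11:82918401-82925800, had equal borders in both lists and 1444 and 1066 counts, a ratio of 0.082 (-0.034 to 0.20). Downstream, a single 200-base island with 72 and 45 counts marked the edge of the stretch without islands, and its interval of -0.73 to 0.40 shows no direction at this depth.

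Between that small island and the first island before Slfn4 lay 45.6 kb with no island in either list, chr11:82940201-82985800. Of the 50-base sequences that start there 2.40% occur once in the mm9 genome, 97.4% occur more than once within the window, and 73.5% occur at exactly 4 places in it, most often 11.7 kb apart. The stretch thus holds tandem copies of a unit of about 11.7 kb. The study kept uniquely mapped reads, so the lack of islands there cannot be read as a lack of H3K27ac. Absence of the mark cannot be told apart from reads that do not map uniquely. Elsewhere this limit of mapping was smaller. Over all regions 92.7% of 50-base sequences were unique, from 26.5% for the 200-base island to 100%, against 45.2% over all 31 gaps between them. Gene bodies ranged from 83.3% for Slfn3 to 99.8% for Slfn1, with 90.6% for Slfn8 and 88.0% for Slfn9 in spite of their likeness.

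The intermediate group had the weakest mark by counts per kb over the gene and 5 kb either side, in both lists. At the start of Slfn4 (chr11:82988688-83003723, plus strand) lay a WT island of 804 counts over 6.2 kb and a dKO island of 732 over 7.2 kb. Scaled to the lists these are 9.73 CPM in WT and 12.7 in dKO cells, or 1.57 and 1.76 CPM per kb. The next islands, inside the gene, held 453 counts in WT and 139 in dKO cells. The merged region of all these islands had a ratio of -0.0096 (-0.14 to 0.12). Further in, over an alternative start, chr11:82998201-83002200 held 438 counts over 3.4 kb in WT and 163 over 1.6 kb in dKO cells. Its ratio of -0.91 (-1.17 to -0.64) made it the region called lower by counts, and its ratio per kb was 0.18. The depth was 129 counts per kb in WT and 102 in dKO cells, close to the medians of all islands, 142 and 98.3, so the difference lies in the covered length. A neighbouring WT island of 1.6 kb with 210 counts, inside Slfn4, had no dKO partner. Over the gene and 5 kb either side the ratio was -0.27 (-0.35 to -0.19) by counts and 0.14 per kb.

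Slfn3 (chr11:83004832-83028656, plus strand) had 1341 counts over 5.8 kb at its promoter in WT cells and 843 over 5 kb in dKO cells, a ratio of -0.15 (-0.28 to -0.025) by counts and 0.064 per kb. Its body held further weak islands, 2 of them in the dKO list only, with 127 and 171 counts. Over the gene and 5 kb either side the ratio was -0.030 (-0.12 to 0.059), which includes 0. Both genes were low among protein-coding genes in WT cells, with Slfn4 at percentile 19.1 and Slfn3 at 20.9 of counts per kb. In dKO cells Slfn4 was at 34.7 and Slfn3 at 24.7. The promoter region of Slfn3 was deeper than that of Slfn5, at 2.80 CPM per kb in WT and 2.92 in dKO cells beside 2.35 and 2.74.

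Of the long group, Slfn8 (chr11:82815660-82834312, minus strand) had the deepest promoter island in WT cells, at 369 counts per kb. This island, chr11:82826401-82836000, had the same borders in both lists and held 3545 counts in WT and 2039 in dKO cells, a ratio of -0.28 (-0.36 to -0.20). In dKO cells it held 212 counts per kb, under the island at the Slfn9 promoter. A small region inside the gene went the other way by counts, with 268 counts over 1.4 kb in WT and 269 over 2.2 kb in dKO cells, a ratio of 0.53 (0.28 to 0.77) and of -0.13 per kb. Over the gene and 5 kb either side Slfn8 was at -0.059 (-0.13 to 0.014) by counts and at -0.47 per kb.

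At Slfn9 (chr11:82793131-82805332, minus strand) 1 WT island of 10.6 kb with 3049 counts stood where the dKO list had 2, of 339 and 1502 counts. The region ratio was -0.21 (-0.29 to -0.12) by counts and -0.095 per kb. The dKO island over the promoter was 6.2 kb wide and held 242 counts per kb, more than 95.6% of dKO islands. The WT island, at 288 counts per kb, was above 88.2% of WT islands but averaged over the longer stretch.

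For Slfn5 (chr11:82764851-82776443, plus strand) the direction depended on where islands ended. A WT island of 25 kb, chr11:82743801-82768800, ran from inside Unc45b, a myosin chaperone gene, over the Slfn5 promoter, with 5249 counts or 210 counts per kb. The dKO list had 3 islands over and before the same stretch, and the one at the promoter, chr11:82755001-82768800, held 2904 counts over 13.8 kb, also 210 counts per kb. Scaled to the lists, these depths are 2.54 CPM per kb in WT and 3.65 in dKO cells. The merged region, chr11:82730001-82768800, held 6682 counts in WT and 5934 in dKO cells, a ratio of 0.35 (0.30 to 0.40) and of 0.22 per kb. Over the gene and 5 kb either side, where the whole WT island of 25 kb counts, the ratio was -0.28 (-0.33 to -0.23) by counts and 0.30 per kb. The Slfn5 body, chr11:82770601-82778000, had 1165 counts over 6.6 kb and 568 over 5.2 kb, a ratio of -0.52 (-0.66 to -0.37). So the mark per kb was higher over the merged region that holds the Slfn5 promoter, most of which lies before the gene. With 1 count per island, the difference cannot be placed at the promoter itself. Over the region of the gene's body the mark was lower, at -0.17 per kb, and neither region passed 1.5-fold.

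The same borders set the contrast between the cluster and its flanks. Islands that overlap the span of the 7 genes gave a ratio of -0.23 (-0.25 to -0.20), and those of the flanks alone 0.58 (0.53 to 0.63). With whole merged regions, so that the long region over Unc45b and Slfn5 is counted alike in both lists, the span gave -0.12 (-0.14 to -0.10). The flank value of 0.58 was not computed that way. It includes dKO islands of 2466 and 564 counts from that long region, while the WT island of 25 kb there is counted in the span. So 0.58 cannot be read as a gain in the flanks. Of the other genes in the window, the pseudogene Slfn10-ps between Slfn8 and Slfn2 had 2047 and 1508 counts, a ratio of 0.079 (-0.018 to 0.18). Nle1, a ribosome assembly gene, was at 0.64 by counts and -0.57 per kb, and Unc45b at 0.32 and 0.10. The promoter of the transcript AI662270 beyond Slfn3, chr11:83033801-83039600, was the region lower per kb, with 2475 counts over 4 kb in WT and 1514 over 5.8 kb in dKO cells, at -0.73 per kb and -0.19 by counts. The region higher by counts was chr11:83053401-83057400 in the same flank, with 141 counts over 1.2 kb and 318 over 4 kb, at 1.69 (1.40 to 1.99) by counts and -0.044 per kb. It overlaps no gene.

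The merged regions at the promoters of other interferon-inducible genes also stayed under the limit. Their width in WT cells varied, with 4.8 kb covered at Ifih1, 127 kb at Oas3 and 147 kb at Zbp1. In the wide ones a difference confined to the promoter cannot be seen. Of 32 listed genes, 30 had promoter regions with islands in both lists, and none passed 1.5-fold either way by counts, where 4.11% of all promoters were higher and 10.5% lower, or per kb, where 0.514% were higher and 12.6% lower. Their median was -0.077 by counts and -0.12 per kb, beside -0.16 and -0.19 over all promoters, and 17 of 30 were below 0. Examples by counts are Ddx58, a sensor of viral RNA, at -0.53 (-0.63 to -0.44), and Mx1, an antiviral GTPase, at -0.51 (-0.58 to -0.44). Both covered less sequence in dKO cells, and per kb they were at -0.052 and -0.071. Ifitm3, which blocks virus entry, was at 0.47 (0.39 to 0.55) by counts and 0.42 per kb. Oas1a was the highest by counts, at 0.50 (0.34 to 0.67), and was at -0.084 per kb. Some of these promoters share a region, as those of Oas2 and Oas3 do. Ifi44 had no island at its promoter and Oas1g had one in the dKO list only. The genes named here were picked after their values were seen.

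Other gene clusters give a scale for these values. The window of 8 Gimap genes, GTPases of lymphocytes, was at -0.30 (-0.32 to -0.28) by counts and -0.38 per kb. The window of 5 chemokine genes next on chromosome 11 (Ccl3, Ccl4, Ccl5, Ccl6 and Ccl9) was at 1.01 (0.98 to 1.03) and 0.60 per kb. Of its 8 shared regions 5 were higher by counts, where 11.1% of all shared regions of the genome were. This window was chosen as the nearest changed cluster, and the study reports stronger H3K27ac there in dKO cells. No test of the difference between clusters can be had with 1 list per genotype.

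All 8 naive CD8 T cell markers had an island at the promoter in both lists. So did all 3 B cell markers, so the presence of an island alone does not set the label of the cells apart. The sum over the 8 was 2977 CPM in WT and 1577 in dKO cells, with a shared island counted for each of its genes. Ccr7 was at 668 CPM in WT and 299 in dKO cells, and Il7r at 91.2 and 48.2. Cd8a and Cd8b1 share an island in WT cells, at 362 CPM, and were at 135 and 157 in dKO cells. Cd3e was at 82.2 and 215 and Cd3d at 163 and 215. These 2 genes share 1 island of 42.2 kb in dKO cells and have separate islands in WT cells. Their higher dKO values therefore depend on where islands end. The list includes the deleted genes, Lef1 at 641 and 192 and Tcf7 at 606 and 316. Of 7 granulocyte and monocyte markers 4 had an island in the WT list and 7 in the dKO list, with S100a8, S100a9 and Elane in the dKO list only and a summed level of 110 CPM in WT and 123 in dKO cells. Of the others Csf1r was at 7.02 and 3.09, Itgam at 87.8 and 80.0, Csf3r at 3.70 and 3.61 and Ly6g at 11.8 and 14.5. All 3 B cell markers had islands in both lists, at 199 and 190 CPM. Of 3 NK cell markers Klrb1c had islands in both lists, with the sum at 49.9 and 64.3, and Ncr1 and Klra8 had none. Of 3 erythroid and megakaryocyte markers 2 had islands in both lists, at 18.7 and 15.8, and Hbb-b1 had none. The part of other cell types in the Schlafen values, Slfn4 among them, was not tested.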

How the data were processed

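Per the study's methods, the authors aligned reads with Bowtie2 2.2.5 to mm9, kept uniquely mapped reads (MAPQ above 10), pooled the replicates of each genotype and called islands with SICER 1.1 (200-base windows, 400-base gaps, FDR 0.01). The deposited values are 1 read count per island for the 4 pooled WT and the 3 pooled dKO ChIP samples. No values of the 2 input samples were used here. From these counts, islands of both lists that share at least 1 base were merged, counts were divided by each list's total (CPM), and exact binomial intervals were computed (Python 3.11.15, scipy 1.17.1). Positions were written 1-based. Depth was known only as counts in islands. Genes came from GENCODE vM1 on NCBIM37, the same assembly as mm9, promoter sequences from RefSeq. Uniqueness was taken from exact matches of 36, 50 and 100 bases on both strands. Sequences were aligned with Biopython 1.88. Functions were tested on simulated data.

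The members and gene lists were chosen with earlier results of these data known. Named genes are the 7 members, other protein-coding genes, Slfn pseudogenes and regions of the window, listed accessible sites, markers, and interferon-stimulated genes past 1.5-fold on both measures. No gene met the last part, so the interferon-stimulated genes named were picked after their values were seen. The Gimap and Ccl genes are named only as windows for comparison. Alternatives are given in the closing section. 1 naive T cell marker is not reported here.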

Additional observations from a re-analysis of the deposited data

How the results depend on the processing

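No paired analysis was possible because the replicates of each genotype are pooled into 1 list. The window ratio stayed below 0 under all alternatives run. It was -0.029 when scaled to the counts of regions with islands in both lists, -0.027 when scaled by the median ratio of all regions, -0.19 per covered kb, -0.23 without flanks and -0.077 with flanks of 100 kb. In alternatives chosen after seeing the data it was -0.20 over islands with the same borders in both lists, -0.015 without the region of highest WT depth and -0.12 over whole merged regions of the span. The count of regions past 1.5-fold, 2 as reported, was 1 at a ratio of at least 2, 1 per covered kb, 1 with islands joined within 1 kb and 8 with 10 pseudocounts added so that regions of 1 list count (6 higher and 2 lower). It was 3 under either other scaling (2 higher and 1 lower) and 3 with islands of at least 100 counts (1 higher and 2 lower). All 7 promoters kept an island in each list under the 3 alternatives run, and no listed interferon-stimulated promoter passed under the 2 run. Of the 7 gene values, 5 stayed below 0 under either other scaling, 6 with the gene body only and 5 per covered kb, with values from -0.47 to 0.30 per kb. Island borders and the scaling thus set the direction of values this small, and the counting intervals leave out differences between mice and libraries.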
